A study of Mus musculus with 21 samples.

Results

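The comparison described here set mouse embryonic stem (ES) cells of strain V6.5 with a Dot1l knockout (KO) against control cells that carried a control guide RNA and are labelled wild type. Both groups were kept in serum medium with 100 U/ml leukemia inhibitory factor (LIF), the cytokine that holds ES cells undifferentiated, on a layer of inactivated mouse embryonic fibroblasts, and neither received another treatment. Each group had 3 RNA sequencing libraries of the 21 libraries in the series. Expression was given as FPKM, fragments scaled to transcript length and to the library's total, and the genes described are the 13153 of 53796 in the table whose mean over the 6 libraries was at least 1 FPKM. Nearest that limit, Gm12704 lay inside with a mean of 1.00003 FPKM and Gm10120 outside with 0.999748 FPKM. Whether the KO was a single clone or a pool is not stated in the labels, and neither is it stated that replicates were grown apart. The p-values thus reflect only how much these 6 libraries vary, and that variation may be technical.

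Dot1l is the enzyme that methylates histone H3 at lysine K79, a mark found over the bodies of transcribed genes. It acts on the nucleosome core rather than on a histone tail, is recruited with elongation factors of the Mllt family, and is stimulated by ubiquitin on histone H2B. ES cells in LIF and serum keep a network of naive pluripotency factors, and a small and changing share of them passes through a state that resembles the embryo at the 2-cell stage. The question put by the design is which transcripts differ when Dot1l is lost in undifferentiated cells.

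The libraries carried ES cell markers in all 6 cases: Pou5f1, the central pluripotency factor, ranged from 1399 to 1694 FPKM and Sox2 from 156 to 220.0 FPKM. Afp, of visceral endoderm, and the fibroblast gene Lum were at 0 in every library. Other markers of endoderm and fibroblasts were detected in all 6. The endoderm regulator Sox17 was at 1.39 to 2.91 FPKM and the fibroblast marker Thy1 at 12.5 to 26.4 FPKM, and Gata4 and Gata6 were above 0 in each library. The 2 silent genes thus do not show that the libraries were free of endoderm or feeder RNA. Summed FPKM was 835700 to 895100, except in KO replicate 3 with 1080000, where the gene Mir6236 held 28.6% of the sum against 5.25% to 8.31% elsewhere. Sequencing depth is not recorded in FPKM. A rough relative depth from the lowest values ran from 0.616 to 1.30 of KO replicate 1, with the extremes in 2 control libraries.

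Dot1l itself checked the labels. Its level was 21.2, 20.6 and 24.6 FPKM in the controls and 11.2, 8.90 and 10.8 FPKM in the KO libraries, or 22.1 ± 2.19 and 10.3 ± 1.23 FPKM (mean ± SD, n = 3 each). All 3 KO libraries lay below all 3 controls, but Dot1l RNA was still present in each. The log2 fold change, here always the difference of mean log2(FPKM + 1), KO minus control, was -1.04 (SE 0.11, limma adjusted p = 0.0178). The gene lies on chromosome 10 of GRCm38, from 80755101 to 80795461. Protein and H3K79 methylation in these KO cells were not analysed here. Among 16 measured genes of the Dot1l complex and its elongation partners, Dot1l alone passed the threshold, an adjusted p of 0.05 over all genes tested. Mllt10, which anchors Dot1l on chromatin, had 27.7, 39.6 and 26.1 FPKM in controls and 20.5, 30.4 and 21.0 FPKM in the KO, with overlapping groups. The kinase gene Cdk9, of the elongation factor P-TEFb, was at 76.8 to 89.6 FPKM in controls and 71.9 to 92.7 FPKM in the KO. None of 10 genes for H2B ubiquitination and the Paf1 complex passed. Cdk1, the mitotic kinase after which the series is named, had 327, 373 and 328 FPKM in controls and 351, 351 and 335 FPKM in KO libraries (log2 fold change 0.01, limma adjusted p = 0.92).

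Across all genes tested, 580 passed, or 4.41%. Of these 126 were higher in the KO (0.958% of genes tested) and 454 lower (3.45%). Counts of list members given below are to be read beside these shares. Most changes were small: the median log2 fold change was 0.62 among the higher genes and -0.41 among the lower, and 19 higher and 10 lower genes exceeded 1 in size. Higher genes had a median level of 11.7 FPKM, near the 12.1 FPKM of all genes tested, and lower genes 42.5 FPKM. All 580 had groups that did not overlap, as did 31.2% of genes tested (8.66% with the KO above and 22.5% with the KO below). The median over all genes was -0.07, and the share of higher genes among those called, 21.7%, was 47.2% after quantile normalization (127 higher, 142 lower), 45.6% with libraries rescaled by median of ratios (164 and 196) and 47.6% with equal sums set without the most abundant gene (128 and 141).

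Leaving out a library cut the count of 580 sharply: 27, 1 and 18 genes passed without control replicates 1, 2 and 3, and 14, 5 and 1 without KO replicates 1, 2 and 3. Of the 580, 579 had an unadjusted p under 0.05 in each of these 6 limma fits. The genes were chosen on the same libraries, so this does not show that the calls are stable. Without KO replicate 3, the library rich in Mir6236, the median log2 fold change was 0.64 for the higher genes and -0.40 for the lower. Calls below are therefore those of the full set of libraries.

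**Figure D1:**
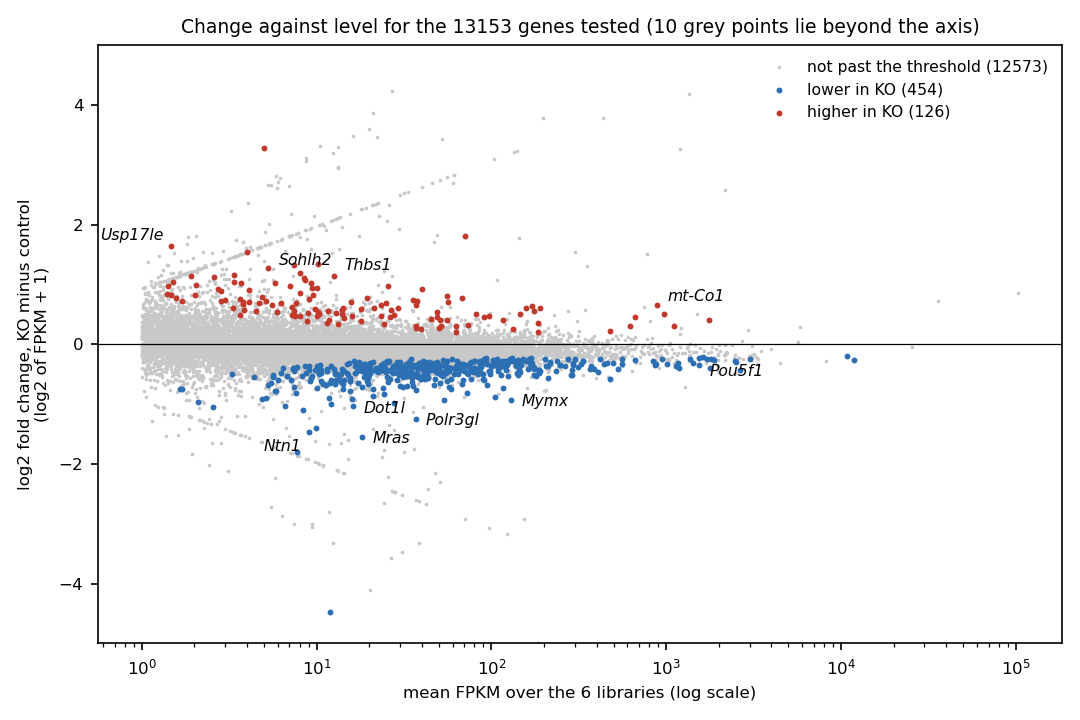
Log2 fold change (KO minus control, log2 of FPKM + 1) against mean FPKM on a log axis for the 13153 genes tested, with 126 higher genes in red, 454 lower genes in blue and the rest in grey. Most blue points lie above 10 FPKM and close to the axis, and 10 grey points fall beyond the plotted range.

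Genes of the 2-cell-like state were higher in the KO, at very low levels. This state is marked by the Zscan4 and Usp17l gene families, which are silent in most ES cells and switched on under the transcription factor Dux. Usp17le, a deubiquitinase gene, had 0.207, 0.267 and 0.109 FPKM in controls and 3.13, 2.26 and 2.84 FPKM in the KO. Its lowest KO library was far above its highest control, and it rose with a log2 fold change of 1.64 (SE 0.17, limma adjusted p = 0.0177). Usp17le reached the 1 FPKM filter only through its KO libraries, with a mean of 2.74 FPKM against 0.194 FPKM in controls. It was the only member of the list to pass, of 2 above the filter. The other was Eif1a, a translation factor gene active in all cells, at 64.5 to 70.2 FPKM in controls and 59.9 to 68.2 FPKM in the KO.

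Members of these families are near-identical copies between which reads can be divided, so family sums are given. Summed over 5 Zscan4 genes, which act in telomere maintenance, the level was 0.301, 0.305 and 0.393 FPKM in controls and 4.23, 3.64 and 3.84 FPKM in KO libraries, a ratio of means of 11.7. The 5 Usp17l genes summed to 0.548, 0.712 and 0.541 FPKM in controls and 7.52, 5.81 and 7.00 FPKM in the KO, a ratio of 11.3. In both families the 3 libraries of a group were close to each other and the groups far apart. Duxf3, the Dux gene, had 0.0202, 0 and 0.0425 FPKM in controls and 0.0523, 0.384 and 0.412 FPKM in the KO, so that KO replicate 1 was barely above the controls.

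Over the whole list of 19 genes, 15 had all KO libraries above all controls, 4 overlapped and none was lower. Of the 16 that lay above 0 but under the filter, 14 (87.5%) were in that position, against 8.87% of the 13702 genes in this range of level. Among the 16 are Zscan4 and Usp17l copies, which can share reads and are not separate members. The list was also chosen with earlier results of these data known, so these shares describe it and do not test it. Control replicate 1, the deepest library by the rough estimate, had family sums of 0.301 (Zscan4) and 0.548 FPKM (Usp17l). The part of sequencing depth in these differences was not tested. When the filter was dropped and 26855 genes were tested, of which 0.272% were called higher, the KO was higher past the threshold for Usp17le (adjusted p = 0.0283), Usp17lc (0.0266), Zscan4a (0.0352), Usp17la (0.0361), Zscan4c (0.0479) and the arginase gene Arg2 (0.0483) in limma. Usp17lb, Usp17ld and Zscan4d did not pass there, with adjusted p-values of 0.0531, 0.0539 and 0.0801. Neither did Zfp352 (0.0759), Gm5662 (0.114), Zscan4f (0.129), Tcstv1 (0.188), Zscan4b (0.21) and Duxf3 (0.291) in this limma fit. Tcstv3, Tdpoz4 and Eif1a lay at 0.497 to 0.625, and Gm4340 was at 0 in every library. In bulk RNA, more cells in this state and more such RNA in each cell cannot be told apart, and the same holds for every cell state named below.

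**Figure D2:**
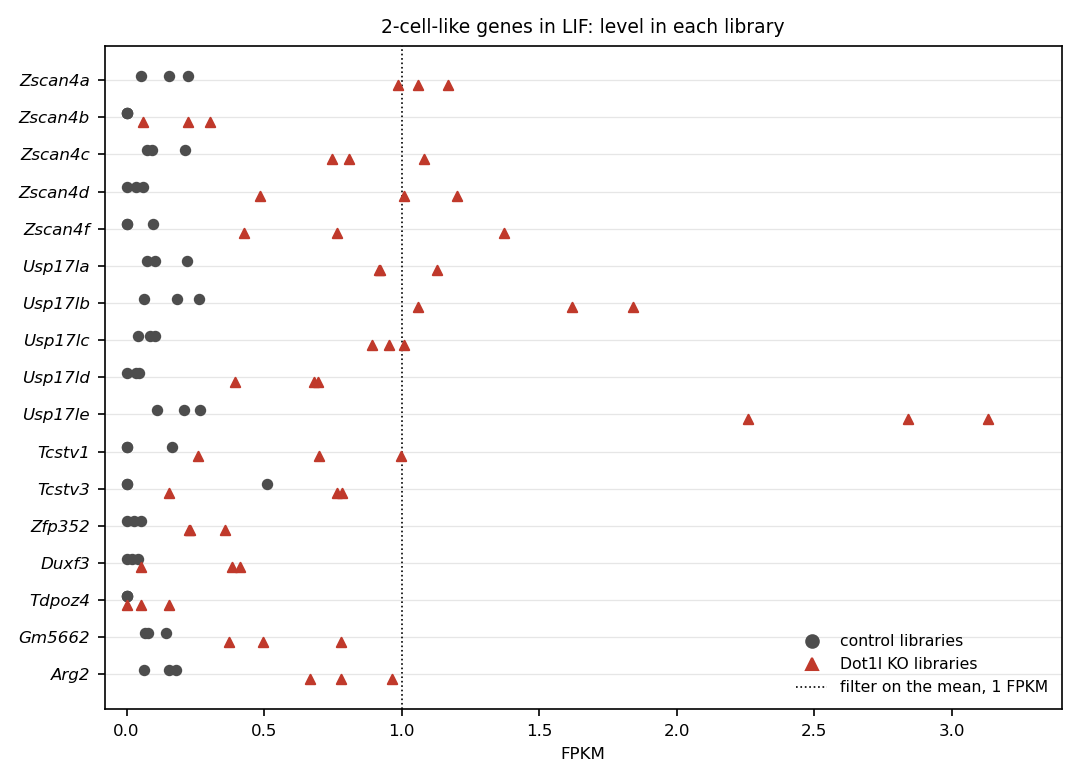
FPKM of each 2-cell-like gene above 0, other than Eif1a, in the 3 control libraries (grey circles) and the 3 KO libraries (red triangles), with the filter of 1 FPKM as a dotted line. The controls stay under 0.6 FPKM for every gene shown, and Usp17le is the gene whose KO libraries all exceed 2 FPKM.

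Germline genes were higher in the KO as well. Of 24 tested members of a list of 28, 6 rose and none fell, beside 0.958% and 3.45% of all genes. The list's median log2 fold change was 0.47 against -0.07 over all genes tested. This list, like the others here, was chosen with earlier results of these data known. Its shares and median therefore describe it and do not test it. Sohlh2, a transcription factor of early oocytes and spermatogonia, had 5.11, 5.10 and 4.83 FPKM in controls and 12.2, 12.5 and 11.4 FPKM in the KO. Mael, of the piRNA pathway that silences transposons, had 17.1, 18.9 and 15.3 FPKM and 32.6, 37.2 and 33.3 FPKM. Both groups were tight and far apart in these genes, with log2 fold changes of 1.11 and 0.97. Tuba3a, a testis tubulin gene, rose by 0.77 (13.1 to 15.0 FPKM in controls, 24.7 to 25.2 FPKM in the KO), and its near copy Tuba3b was at 0 in all controls and at 0.388 to 0.479 FPKM in the KO. The RNA-binding gene Dazl had 1.93 to 2.03 FPKM in controls and 3.84 to 4.14 FPKM in KO libraries (log2 fold change 0.75). Smaller rises were those of the piRNA factor gene Tdrd12 (0.43) and the germ cell helicase gene Ddx4 (0.35). Limma adjusted p-values of the 6 genes lay between 0.00911 and 0.0467.

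The other 18 tested members did not pass. Sycp1, of the synaptonemal complex, had 2.33, 1.52 and 1.17 FPKM in controls and 4.20, 5.56 and 3.18 FPKM in the KO (limma adjusted p = 0.0713), and Hormad1 had 2.87 to 3.71 and 4.83 to 6.70 FPKM (0.0684). The cohesin gene Stag3, at 30.8 to 32.8 FPKM in controls and 29.5 to 34.6 FPKM in the KO, overlapped between groups. In all, 19 of the 24 had groups that did not overlap with the KO above, against 8.66% of all genes. The list's median stayed between 0.42 and 0.53 when any library was left out.

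In ES cells many germline promoters are held silent by a variant Polycomb complex with Mga, Max, E2f6, L3mbtl2 and Pcgf6, which binds an E-box, CACGTG, and an E2F-type site, TTCCCGC. Of 14 genes for these and other germline repressors, 1 passed, against 4.41% of all genes. The H3K9 methyltransferase gene Ehmt2 fell by 0.33, with 73.5 to 82.5 FPKM in controls and 59.2 to 61.9 FPKM in the KO (limma adjusted p = 0.0429). Mga was at 40.2, 41.0 and 46.6 FPKM in controls and 41.4, 43.6 and 33.3 FPKM in the KO, and E2f6 at 11.8, 9.80 and 11.1 and 9.08, 10.5 and 10.2 FPKM. The list's median was -0.07 as deposited, 0.03 after quantile normalization and 0.01 when rescaled by median of ratios. The sequences below are the 250 bases upstream of an annotated start of 4 germline genes that rose, shown to set those letters beside the values. They come from RefSeq on GRCm38.p6, read 5′ to 3′ on the gene's strand, with either motif on either strand in capitals. The other germline genes that rose, Sohlh2 and Tdrd12, held neither motif in the same window and are not shown. Ddx4 holds both motifs (on the minus strand of chromosome 13, 112652311 to 112652560). This window lies inside the full annotated span of Ddx4, 112598333 to 112652633, and not beyond its outermost start. Mael holds an E-box (minus strand of chromosome 1, 166238745 to 166238994) and Tuba3a an E2F-type site (minus strand of chromosome 6, 125286082 to 125286331). Dazl holds neither (minus strand of chromosome 17, 50293621 to 50293870).
Ddx4: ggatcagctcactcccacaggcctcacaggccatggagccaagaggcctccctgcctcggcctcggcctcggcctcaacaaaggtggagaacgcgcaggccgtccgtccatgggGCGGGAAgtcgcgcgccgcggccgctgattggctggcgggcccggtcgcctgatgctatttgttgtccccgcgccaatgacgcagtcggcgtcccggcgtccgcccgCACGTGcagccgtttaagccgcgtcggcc
Mael: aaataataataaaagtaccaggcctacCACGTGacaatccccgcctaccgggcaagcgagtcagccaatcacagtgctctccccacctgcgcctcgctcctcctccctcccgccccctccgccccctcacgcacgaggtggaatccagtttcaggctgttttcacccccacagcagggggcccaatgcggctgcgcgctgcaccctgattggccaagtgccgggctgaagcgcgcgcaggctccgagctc
Tuba3a: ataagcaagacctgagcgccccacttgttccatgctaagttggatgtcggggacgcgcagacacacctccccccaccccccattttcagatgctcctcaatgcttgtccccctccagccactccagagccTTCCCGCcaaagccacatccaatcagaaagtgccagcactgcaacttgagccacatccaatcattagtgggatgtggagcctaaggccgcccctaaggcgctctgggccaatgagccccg
Dazl: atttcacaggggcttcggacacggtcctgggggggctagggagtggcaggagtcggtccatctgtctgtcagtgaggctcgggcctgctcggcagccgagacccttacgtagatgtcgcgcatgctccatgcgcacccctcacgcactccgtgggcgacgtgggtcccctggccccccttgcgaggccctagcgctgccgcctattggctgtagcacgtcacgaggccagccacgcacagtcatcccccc

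CACGTG was found on either strand of this window in 12 of the 22 tested germline genes that had a promoter in the table (54.5%) and TTCCCGC in 7 (31.8%). Over all 9493 tested genes with a promoter the shares were 8.77% and 7.45%. Among the 6 germline genes that rose, 2 held the E-box and 2 the E2F-type site. Genes called higher as a whole had the E-box in 5 of 90 promoters (5.56%) and the E2F-type site in 7 (7.78%). These are matches of letters, which describe the window and not a bound site.

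The X-linked Rhox homeobox cluster is active in germ cells and placenta, and 1 of its 5 tested genes rose. Rhox13 went from 0.822, 1.04 and 0.577 FPKM in controls to 2.49, 3.28 and 3.29 FPKM in the KO (log2 fold change 1.15, limma adjusted p = 0.0281), while Rhox5, the most abundant member, had 147, 155 and 163 FPKM and 151, 160.0 and 147 FPKM with overlapping groups. Gtsf1, which acts with piRNA proteins, had 1.41 to 2.14 FPKM in controls and 3.47 to 6.00 FPKM in the KO and rose by 1.05. Fthl17a, an X-linked ferritin-like gene of germ cells, rose by 0.98 from below 1 FPKM in each control to 1.97 to 2.39 FPKM. Like Usp17le, Rhox13 and Fthl17a reached the 1 FPKM filter only through their KO libraries. Their control means were 0.813 and 0.631 FPKM, against 3.02 and 2.19 FPKM in the KO.

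**Figure D3:**
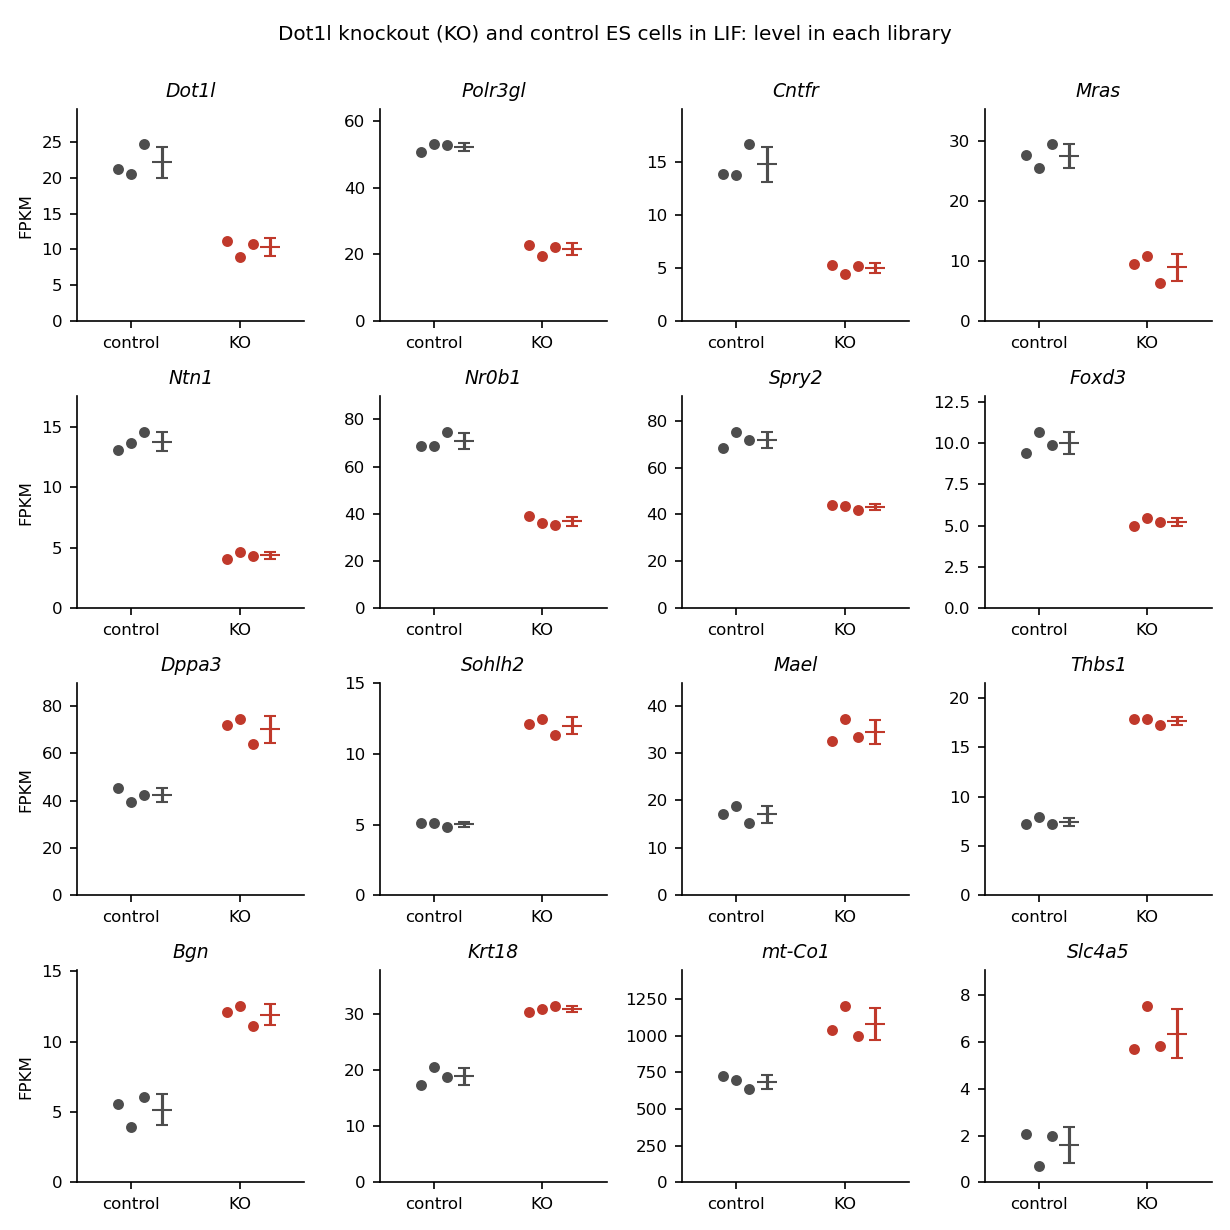
FPKM of 16 genes past the threshold in the 3 control libraries (grey) and 3 KO libraries (red), each panel on its own linear axis from 0, with the mean and SD beside the points. In each panel all KO libraries lie on the same side of all controls.

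Of 17 tested naive pluripotency factors 7 fell, 1 rose and 9 did not pass, where 3.45% of all genes fell and 0.958% rose. The median was -0.37 (-0.28 after quantile normalization). Groups did not overlap, with the KO below, in 14 of the 17, against 22.5% of all genes. Nr0b1, a nuclear receptor of the naive network, had 68.7, 68.9 and 74.9 FPKM in controls and 39.1, 36.3 and 35.4 FPKM in the KO, a fall of 0.92 (SE 0.06, limma adjusted p = 0.00911). Gbx2, a homeobox target of LIF and Stat3, had 31.0, 29.4 and 33.8 and 17.8, 15.3 and 18.6 FPKM, and Klf5, a Krüppel-like factor, 70.2, 77.8 and 74.2 and 45.0, 44.1 and 42.5 FPKM. In each of them the lowest control exceeded the highest KO library by more than the range within either group. Esrrb, Zfp42, Tfcp2l1 and Nanog fell by less, with log2 fold changes from -0.48 to -0.34.

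Klf4 fell short of the threshold with 232, 223 and 282 FPKM in controls and 185, 176 and 169 FPKM in the KO (limma adjusted p = 0.0532), as did Prdm14 with 5.19, 6.22 and 5.86 and 3.61, 4.14 and 3.96 FPKM (0.06). The member that rose was Dppa3, a maternal factor also expressed in germ cells, from 45.5, 39.4 and 42.3 to 71.8, 74.7 and 63.9 FPKM (log2 fold change 0.71, limma adjusted p = 0.0213). Among 16 general pluripotency genes 6 fell, against 3.45% of all genes, and none rose. The median was -0.22 as deposited, -0.11 after quantile normalization and -0.14 when rescaled by median of ratios. Pou5f1 fell by 0.22, Sox2, which shares its locus with 14 other listed genes, by 0.43, and Utf1, a chromatin factor, by 0.33. Gdf3, a ligand of the Nodal family, fell by 0.40. Lin28a, which blocks let-7 maturation, had 111, 127 and 108 FPKM in controls and 116, 107 and 119 FPKM in the KO, with overlapping groups.

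The formative and primed epiblast list split. Foxd3, a repressor needed to keep ES cells, fell from 9.38, 10.7 and 9.85 to 4.97, 5.43 and 5.25 FPKM (log2 fold change -0.82, limma adjusted p = 0.0176). Lef1, the Wnt effector, fell by 0.75 with an adjusted p of 0.0495 in limma, and no member rose. Dnmt3b, a de novo DNA methyltransferase gene, had 61.5, 62.7 and 66.1 FPKM in controls and 76.7, 73.1 and 71.5 FPKM in the KO (0.0784). The median of the 14 tested members was 0.04.

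Several signalling pathways that act on ES cells changed in single members. Cntfr, a receptor subunit of the LIF family of cytokines, fell from 13.9, 13.7 and 16.6 FPKM to 5.29, 4.47 and 5.23 FPKM (log2 fold change -1.39, SE 0.11, limma adjusted p = 0.0124). Stat3, the transcription factor that carries the LIF signal, fell by 0.48, with 40.5 to 47.4 FPKM in controls and 29.4 to 34.6 FPKM in the KO. Gadd45g, a stress and differentiation gene, rose from 23.5, 25.1 and 30.9 to 43.7, 42.1 and 49.1 FPKM. The shared signalling receptor gene Il6st was at 69.5 to 74.6 FPKM in controls and 64.0 to 83.5 FPKM in the KO, with overlapping groups. In all 1 of 16 members of this list rose and 2 fell.

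The FGF and ERK pathway pushes ES cells out of the naive state. Of 19 tested genes of its feedback list 4 fell, against 3.45% of all genes. Spry2, an inhibitor of receptor tyrosine kinase signalling, had 68.2, 75.4 and 71.7 FPKM in controls and 44.2, 43.8 and 41.8 FPKM in the KO. Its relative Spry4 had 48.6, 46.1 and 47.8 and 32.9, 31.7 and 31.6 FPKM, and the ERK phosphatase gene Dusp6 63.4, 61.0 and 68.9 and 48.5, 46.4 and 43.4 FPKM. All 3 had groups well apart, and they fell by 0.72, 0.55 and 0.47 (limma adjusted p = 0.0124, 0.0158 and 0.0285). The ligand gene Fgf1, 1 of 9 genes listed at its locus, had 3.12 to 4.68 FPKM in controls and fell to 1.24 to 1.41 FPKM. Egr1, an immediate early target of ERK, went the other way, from 117, 126 and 123 to 147, 146 and 143 FPKM. It was the only member to rise, 12 of 19 had the KO below without overlap (22.5% of all genes), and the median was -0.19 (-0.13 after quantile normalization, -0.12 when rescaled by median of ratios). Fgf4, the main FGF ligand of ES cells, had 62.7, 68.9 and 63.9 FPKM in controls and 56.2, 64.8 and 57.8 FPKM in the KO and did not pass (limma adjusted p = 0.341).

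Among Ras family genes, 2 of 17 fell, against 3.45% of all genes. Mras, which helps to activate Raf, had 27.8, 25.5 and 29.5 FPKM in controls and 9.60, 10.9 and 6.44 FPKM in the KO, the largest fall after those of the predicted genes Gm24727 (-4.48) and Gm27406 (-1.81) (log2 fold change -1.55, SE 0.18, limma adjusted p = 0.0212). Eras, a Ras gene peculiar to ES cells, fell from 44.0, 42.4 and 45.7 to 26.0, 26.0 and 28.8 FPKM. Of 11 tested Wnt targets, Lef1 and Myc fell and none rose. Myc, the growth regulator, had 22.7, 23.0 and 23.1 FPKM in controls and 17.4, 14.5 and 17.1 FPKM in the KO, whereas Axin2, the usual reporter of Wnt activity, had 8.07, 6.96 and 8.15 and 7.66, 8.59 and 6.37 FPKM.

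Nodal and activin targets moved in both directions. The antagonist genes Lefty1 and Lefty2 rose, Lefty1 from 117, 116 and 127 to 168, 167 and 178 FPKM and Lefty2 from 18.7, 19.9 and 19.3 to 25.5, 27.7 and 28.6 FPKM. Id3, a target shared with the BMP pathway, rose by 0.66. Falling members were the inhibitory Smad7 (-0.56), the receptor gene Acvr1b (-0.36) and the co-receptor gene Tdgf1 (-0.26). In sum 4 of 12 rose and 3 fell, against 0.958% and 3.45% of all genes. The median was 0.05 (0.13 after quantile normalization, 0.12 when rescaled by median of ratios). Nodal itself was at 44.7, 47.7 and 53.1 FPKM in controls and 43.0, 38.9 and 42.9 FPKM in the KO and did not pass.

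Genes of the extracellular matrix were higher for 6 of 24 tested members and lower for 1, against 0.958% and 3.45% of all genes. Their median was 0.14 (0.21 under both rescalings). Thbs1, a matricellular protein gene, had 7.19, 7.90 and 7.21 FPKM in controls and 17.9, 17.8 and 17.2 FPKM in the KO (log2 fold change 1.15, SE 0.07, limma adjusted p = 0.00685). Adamtsl4 had 5.41, 3.51 and 2.64 FPKM and 9.65, 13.0 and 10.3 FPKM, Lox, which crosslinks collagen, 0.985, 0.763 and 0.917 and 2.30, 2.34 and 2.08 FPKM, and Timp3, an inhibitor of matrix proteases, 2.59, 2.14 and 2.57 and 4.18, 4.50 and 4.04 FPKM. Groups were apart in all of these, though the controls of Adamtsl4 spread widely. Lox, among the 6 counted as higher, reached the 1 FPKM filter only through its KO libraries (mean 2.24 FPKM against 0.889 FPKM in controls). Serpinh1, a collagen chaperone gene, rose by 0.32. Fn1, the fibronectin gene, fell by 0.39, with 183 to 205 FPKM in controls and 142 to 159.8 FPKM in the KO. Outside the list but among the 20 largest rises were Bgn, a small proteoglycan gene, with 5.57, 3.91 and 6.05 FPKM in controls and 12.1, 12.5 and 11.1 FPKM in the KO, Mfap5, of elastic microfibrils, with 3.41, 4.11 and 3.00 and 8.09, 8.21 and 8.12 FPKM, and Mgp, an inhibitor of calcification, with 4.29, 4.01 and 4.90 and 11.0, 9.58 and 8.34 FPKM.

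Feeder fibroblasts also make matrix. Summed over 16 fibroblast markers the level was 21.0 to 34.5 FPKM in controls and 39.8 to 49.2 FPKM in KO libraries. None of the 6 tested markers passed, and their median was 0.46. Col1a1, the main fibroblast collagen, had 0.948, 1.34 and 1.71 FPKM in controls and 5.55, 3.14 and 2.97 FPKM in the KO (limma adjusted p = 0.0693), and Thy1, the largest part of the sum, had 12.5, 17.0 and 21.3 and 21.9, 22.2 and 26.4 FPKM. Among the 6 tested, 3 (Col1a1, Thy1 and Pdgfrb) had the KO above without overlap, against 8.66% of all genes, and none had it below. Under the filter, Col5a2, Postn, Fbn1, Prrx1, Col6a1 and Col6a2 also had all KO libraries above all controls, while Col3a1 overlapped. Col1a2 and S100a4 overlapped between groups as well. Twist1 had 2.32, 3.87 and 2.99 FPKM in controls and 1.98, 2.93 and 2.97 FPKM in the KO (log2 fold change -0.16). Lum was at 0 in all 6 libraries, and Dcn and Fap were at 0 in 5 of 6. The part of feeder RNA in the matrix genes was not tested.

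Among members of the extraembryonic endoderm list past the threshold, basement membrane genes split by component. Col4a1, of type IV collagen, rose from 38.8, 41.8 and 42.7 to 57.8, 60.2 and 52.9 FPKM and the laminin gene Lama1 from 9.56, 9.89 and 10.3 to 12.8, 13.3 and 12.7 FPKM. Hspg2, for perlecan, fell from 38.5, 37.2 and 42.3 to 27.6, 26.9 and 26.2 FPKM and Nid1, for nidogen, from 37.7, 35.5 and 43.1 to 25.1, 27.0 and 27.4 FPKM. In all 2 of 18 tested members rose and 2 fell, against 0.958% and 3.45% of all genes. The list as a whole leaned upward: its median was 0.30, and 14 of the 18 lay above 0. The KO was above without overlap in 10 and below in 4, against 8.66% and 22.5% of all genes. The endoderm regulator Sox17 had 1.39, 2.17 and 1.94 FPKM in controls and 2.70, 2.91 and 2.80 FPKM in the KO and did not pass (limma adjusted p = 0.137).

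Of 6 tested simple epithelial keratin genes 3 rose, against 0.958% of all genes, and 3 did not pass. Krt18 had 17.3, 20.5 and 18.8 FPKM in controls and 30.3, 30.9 and 31.4 FPKM in the KO, its partner Krt8 10.1, 9.67 and 11.3 and 15.8, 14.7 and 15.7 FPKM, and Krt7, 1 of 6 genes listed at its locus, 1.27, 1.71 and 2.11 and 3.24, 4.39 and 4.36 FPKM. Their log2 fold changes were 0.69, 0.53 and 0.89 (limma adjusted p = 0.0177, 0.029 and 0.0467). Krt42 lay the other way without passing, at 13.5, 12.5 and 17.6 FPKM in controls and 11.0, 9.38 and 10.6 FPKM in the KO (log2 fold change -0.44). The trophoblast regulators divided: Tfap2c, which also acts in germ cell precursors, rose from 22.0, 21.6 and 22.2 to 30.1, 30.7 and 31.1 FPKM, and Tead4 fell from 15.6, 16.7 and 16.9 to 11.2, 9.88 and 10.9 FPKM. Cdx2, which defines trophectoderm, stayed between 0.0308 and 0.428 FPKM in the 6 libraries. Acta2, the smooth muscle actin gene, rose from 4.68, 5.54 and 6.28 to 10.1, 10.6 and 11.3 FPKM and Pdlim3, of the Z-disc, from 1.46, 1.95 and 1.68 to 5.36, 5.43 and 4.39 FPKM, whereas the actin crosslinkers Flna (-0.39) and Actn1 (-0.29) fell.

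Of 14 tested RNA polymerase III genes, Polr3gl alone passed. Polr3gl and Polr3g encode alternative forms of the same polymerase III subunit, the second typical of ES cells. Polr3gl had 50.8, 52.9 and 52.8 FPKM in controls and 22.9, 19.5 and 22.1 FPKM in the KO, and Polr3g 53.1, 51.9 and 55.4 and 46.9, 46.8 and 44.5 FPKM. Polr3gl fell by 1.24 (SE 0.07, limma adjusted p = 0.00685), and Polr3g did not pass (0.0785). The list's median was -0.06 as deposited and 0.02 under both rescalings.

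Mpc1, a subunit of the carrier that brings pyruvate into mitochondria, had 18.1, 13.1 and 18.2 FPKM in controls and 7.39, 8.71 and 7.07 FPKM in the KO. Slc25a12 and Slc25a13 encode the aspartate and glutamate carriers of the malate shuttle. Slc25a12 had 40.7, 35.6 and 35.2 FPKM and 19.3, 21.2 and 15.2 FPKM, and Slc25a13 45.6, 43.5 and 42.5 and 34.2, 36.0 and 33.7 FPKM. These 3 of 27 metabolite carriers fell, by 0.99, 0.98 and 0.33, against 3.45% of all genes, and none rose. The median was -0.22 as deposited, -0.12 after quantile normalization and -0.14 when rescaled by median of ratios. Of 22 glycolysis genes, the glucose transporter gene Slc2a1 (-0.31) and Gapdh (-0.27) fell.

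Transcripts of the mitochondrial genome were higher. Of 13 protein genes, 6 were listed at 0 in every library. Of the 7 tested, 5 rose and all 7 had the KO above the controls without overlap, against 0.958% and 8.66% of all genes. The cytochrome oxidase subunit gene mt-Co1 had 723, 699 and 634 FPKM in controls and 1035, 1203 and 999.6 FPKM in the KO (log2 fold change 0.65, limma adjusted p = 0.0245), and mt-Nd5 had 134, 141 and 124 and 189, 235 and 199 FPKM. The list's median was 0.56 and stayed between 0.47 and 0.64 when any library was left out. Their sum was 2550 to 2950 FPKM in controls and 3870 to 4620 FPKM in the KO. KO replicate 2 was highest in each of the 5 genes that rose.

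Of 7 tested genes of the Slc4 list of bicarbonate transporters, 1 rose, 1 fell and 5 did not pass, around a median of 0.22. Slc4a5, a sodium bicarbonate cotransporter gene, had 2.08, 0.694 and 2.00 FPKM in controls and 5.70, 7.56 and 5.83 FPKM in the KO (log2 fold change 1.55, limma adjusted p = 0.0355). Slc4a2, a chloride bicarbonate exchanger gene, had 7.62, 11.7 and 8.31 FPKM and 4.37, 3.02 and 4.60 FPKM (-1.02, 0.0465). Control replicate 2 was the lowest control for the first and the highest for the second, and both carry large standard errors (0.26 and 0.20).

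Ribosomal protein genes were lower by small amounts. Of 64, 14 fell and none rose, and 53 had all KO libraries below all controls, against 3.45% and 22.5% of all genes. Rps29, of the small subunit, had 2831, 3017 and 3241 FPKM in controls and 2289.8, 2062 and 2387 FPKM in the KO, a log2 fold change of -0.43. The 14 members spanned -0.43 to -0.21. The median was -0.20 as deposited, -0.12 when rescaled by median of ratios and -0.05 with quantiles equalized, under which Rpl13a, at -0.27 as deposited, had a difference of 0.

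Cell cycle genes of the G1 and S phases behaved alike in size: 7 of 27 fell and none rose, against 3.45% and 0.958% of all genes. Their median was -0.18 (-0.09 after quantile normalization, -0.10 when rescaled by median of ratios). Cdk6, a kinase of the G1 phase, fell from 15.6, 17.8 and 17.8 to 10.9, 10.8 and 10.2 FPKM, and the S phase regulators E2f3 and E2f1 fell by 0.52 and 0.50. Rrm2, for nucleotide synthesis, had 194 to 210.1 FPKM in controls and 144 to 163 FPKM in the KO. Of 22 G2 and M phase genes only Ccnb2, a mitotic cyclin gene, passed, falling by 0.35, and their median was -0.03 as deposited but 0.06 after quantile normalization and 0.05 when rescaled by median of ratios. Trp53, the p53 gene, fell from 312, 335 and 344 to 273, 252 and 254 FPKM and its target Sfn, which arrests the cycle, from 35.2, 34.8 and 37.9 to 27.4, 24.1 and 28.1 FPKM, 2 of 18 tested genes of that list. Among stress and immediate early genes, Junb fell (-0.48), while its relative Jun (0.38) and Ddit4 (0.41), an inhibitor of mTOR signalling, rose.

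In the Polycomb repressive complex 2 list, 2 of 14 genes fell, against 3.45% of all genes. Eed fell from 229, 251 and 237 to 202, 198 and 185 FPKM and the ES cell cofactor gene Epop from 80.1, 87.8 and 88.2 to 65.0, 63.2 and 66.6 FPKM, while the catalytic gene Ezh2 had 159, 148 and 155 FPKM in controls and 141, 125 and 137 FPKM in the KO (limma adjusted p = 0.114). Zfp57, which guards methylation at imprinted loci, fell by 0.38, and Dnmt3l, a cofactor of DNA methylation, rose by 0.21. Of 28 imprinted genes 3 fell and none rose, against 3.45% and 0.958% of all genes. Slc38a4, an amino acid transporter gene, had 113, 104 and 111 FPKM in controls and 73.4, 74.7 and 69.0 FPKM in the KO. The noncoding Meg3 (-0.58) and Gnas (-0.57) also fell, each 1 of 6 genes listed at its locus.

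Other genes stood among the 20 largest changes in each direction. Ntn1, the axon guidance cue netrin, had 13.1, 13.6 and 14.6 FPKM in controls and 4.10, 4.68 and 4.31 FPKM in the KO, a fall of 1.46. Its limma adjusted p of 0.00685 was the smallest of the table, shared with Mymx, Polr3gl and Thbs1. Mymx, known for its peptide that fuses muscle cells, was an abundant transcript with 169, 178 and 162 FPKM in controls and 89.8, 90.2 and 85.5 FPKM in the KO. Cenpv, a centromere protein gene, had 152, 127 and 128 and 77.7, 70.6 and 71.4 FPKM. In these 3 genes the KO libraries lay within narrow ranges well below the controls.

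Developmental regulators with low control levels were among the falls. Sall3, a zinc finger factor gene, had 2.77, 3.10 and 3.41 FPKM in controls and 1.14, 1.10 and 1.04 FPKM in the KO, and Olig2, of the neural lineage, 5.83, 7.94 and 6.27 and 3.26, 2.46 and 3.49 FPKM. Lrr1 (-1.10), part of a ubiquitin ligase, Igsf21 (-0.91), C2cd2l (-0.90), Lix1l (-0.89) and the mechanosensitive channel gene Piezo1 (-0.87, 1 of 210 genes listed at its locus) fell as well. On the other side, Bcas1, known from myelinating cells, had 3.92, 5.68 and 3.92 FPKM in controls and 10.7, 11.9 and 11.8 FPKM in the KO. The surface marker gene Cd34 rose by 1.13 (1 of 12 genes at its locus), Plac8 by 1.03 and Ccno, of multiciliated cells, by 1.03. Limch1 rose by 1.04 (1 of 8 at its locus) and Glcci1 by 0.99 (1 of 10). Limch1 also reached the 1 FPKM filter only through its KO libraries (mean 2.37 FPKM against 0.630 FPKM in controls).

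**Figure D4:**
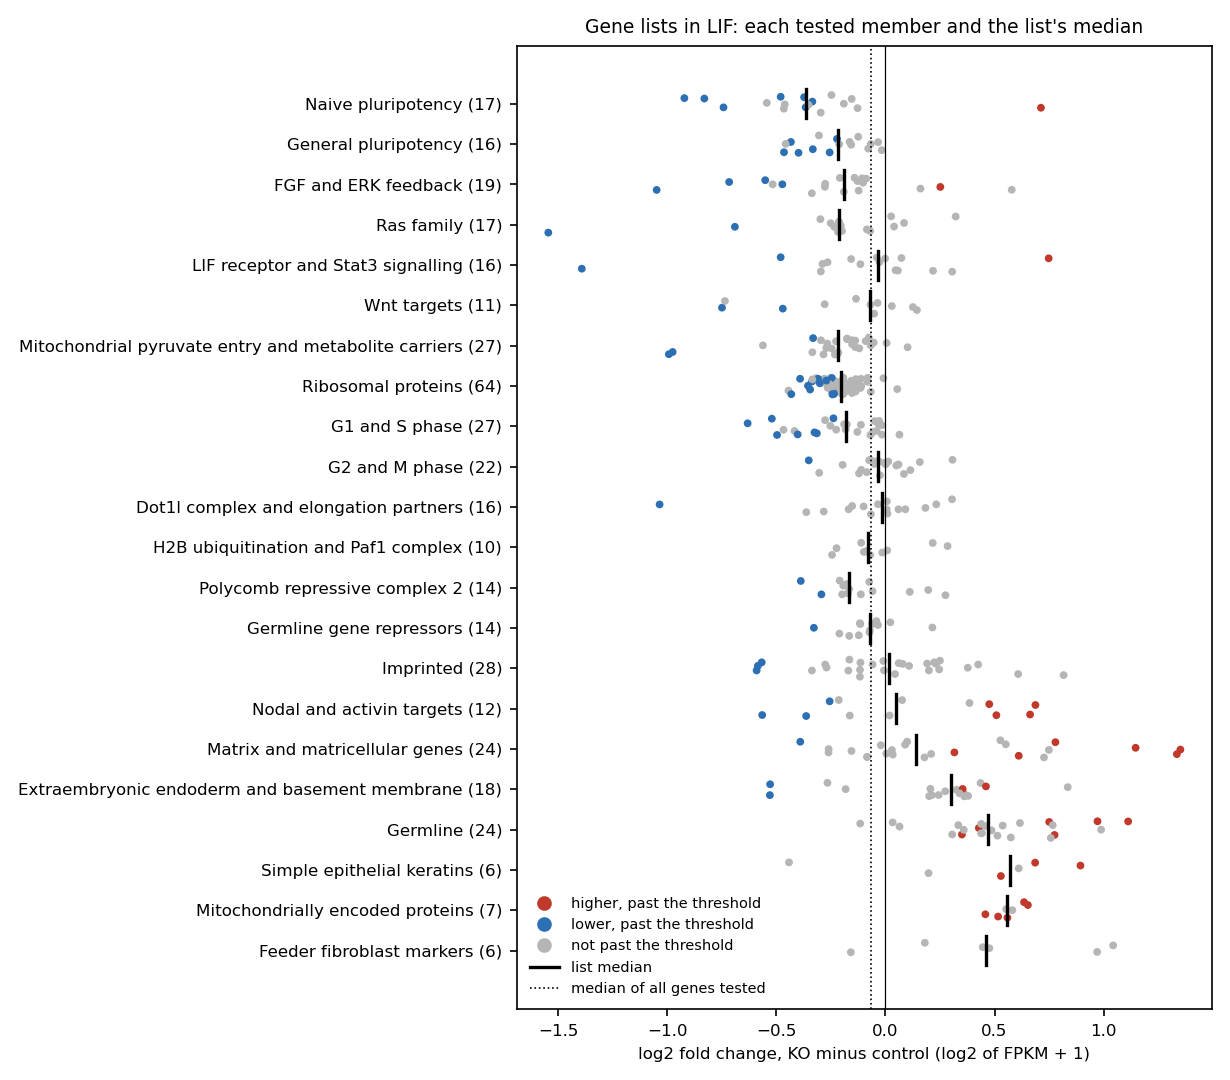
Log2 fold change (KO minus control) of every tested member of 22 gene lists, with the number tested in brackets, members past the threshold in red or blue, each list's median as a black bar and the median of all genes as a dotted line. Naive pluripotency sits at -0.37 and the germline list at 0.47, on opposite sides of the median of all genes.

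The changes also differed by level. Genes were cut into 4 equal classes by mean FPKM. In the lowest class the median log2 fold change was 0.05, with 24 genes higher and 5 lower. In the highest class, of 3288 genes, it was -0.10, with 39 higher and 254 lower. The part of level in the counts of list members was not tested. By chromosome, 10 of 440 tested X-linked genes were higher (2.27%, against 0.958% over all genes) and 15 lower (3.41%). The share was not particular to the X: on chromosome 6, 13 of 616 were higher (2.11%), and on chromosome 15 the share was 1.5%. Of the 10 tested genes of the mitochondrial genome 6 were higher.

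The response in LIF was set against that of the same genotypes under differentiation, in N2B27, a serum-free medium, to which activin A (10 ng/ml) and Wnt3a (50 ng/ml) were added, on gelatin rather than feeders, usually harvested after 24 h. Those libraries had their own controls and were scaled apart, so the difference between the 2 within-condition changes was tested in limma over 11783 genes; it passed for 4513, or 38.3%. Dot1l RNA fell by less there (-0.40, with 17.7 to 19.1 FPKM in controls and 12.9 to 14.7 FPKM in the KO), and the difference from LIF was -0.63 (adjusted p = 0.00426). Of the 454 genes lower in LIF, 437 were tested under differentiation, where 252 (57.7%) were lower and 54 (12.4%) higher. All genes tested there had 29.5% lower and 19.6% higher. The 252 were 6.68% of the genes lower under differentiation. Level moved with these shares: 254 of the 454 genes were in the most abundant of the 4 level classes in LIF, and in the most abundant class under differentiation 2021 of 3193 genes were lower. The part of level in the overlap was not tested. Of the 126 genes higher in LIF, 101 were tested, and 24 (23.8%) were higher and 21 (20.8%) lower.

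Among named genes, Ntn1 turned from -1.46 in LIF to 1.31 under differentiation. Lef1 went from -0.75 to 1.04, Spry4 from -0.55 to 0.82, Stat3 from -0.48 to 0.61 and Klf5 from -0.74 to 0.35. Reversed the other way were Krt18 (0.69 and -0.79) and Gadd45g (0.75 and -0.79). The differences between conditions in these 7 genes had limma adjusted p-values from 9.83e-07 to 0.000602. Polr3gl was not past the threshold under differentiation (0.23), with 2.51 to 3.26 FPKM in controls against 50.8 to 52.9 FPKM in LIF controls, levels from tables that were scaled separately.

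For other genes the difference between conditions did not pass. Cenpv had -0.88 in LIF and -0.89 under differentiation, E2f1 -0.50 and -0.51, Limch1 1.04 and 1.07, and Esrrb -0.48 and -0.43. Their differences, of 0.01, 0.01, -0.03 and -0.05, had standard errors of 0.21, 0.12, 0.25 and 0.08, which do not show that the changes are equal. The Zscan4 and Usp17l genes were at or near 0 in all libraries under differentiation, the highest value being that of Usp17lc in control replicate 3 with 0.140 FPKM.

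**Figure D5:**
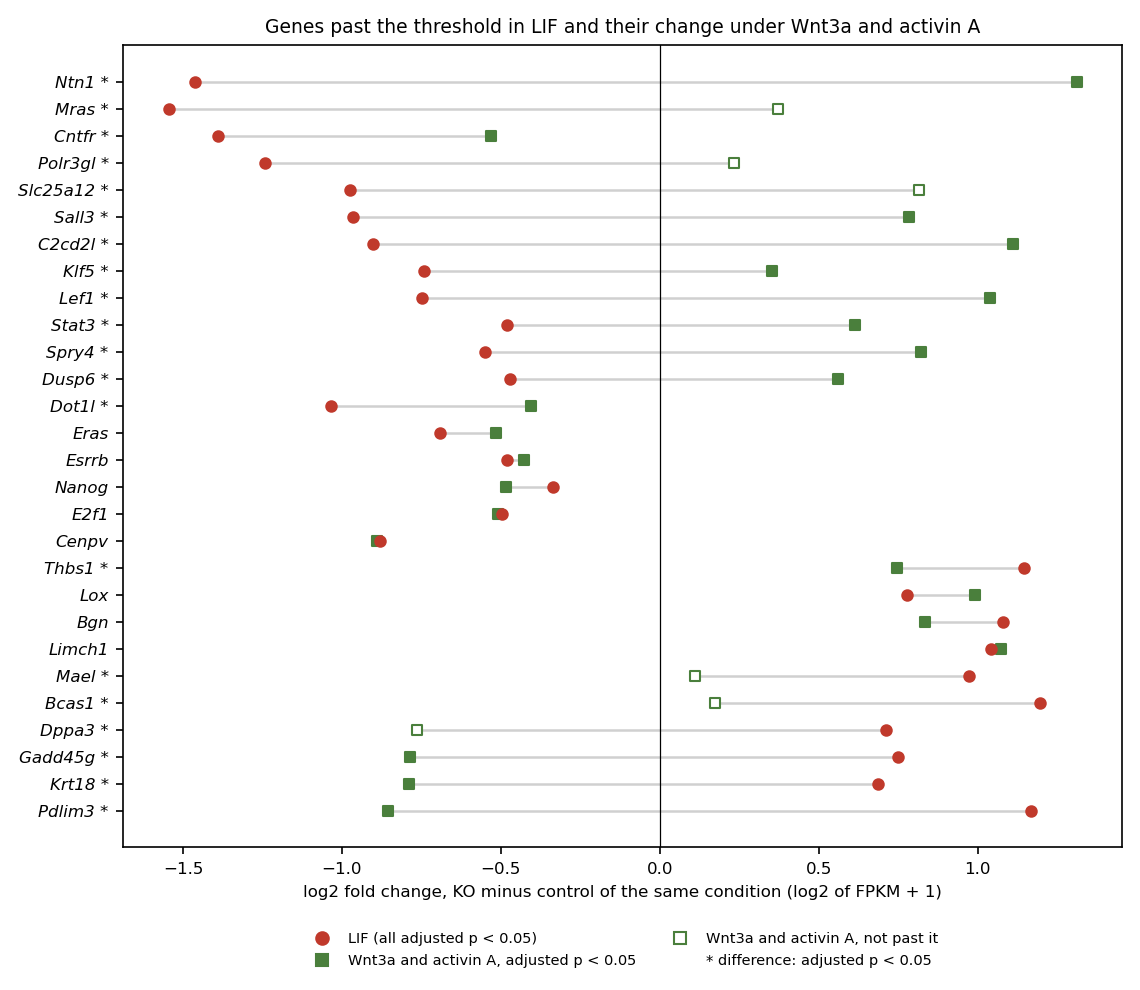
Log2 fold change (KO minus the control of the same condition) in LIF (red circles) and under Wnt3a and activin A (green squares, open where not past the threshold) for 28 genes past the threshold in LIF, chosen to show both kinds of pattern. Asterisks mark genes whose difference between conditions passed, such as Ntn1 at -1.46 and 1.31, and Cenpv lies at -0.88 and -0.89.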

How the data were processed

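RNA was sequenced from 3 control and 3 Dot1l KO libraries in LIF, and from as many under Wnt3a and activin A. The authors deposited a table of FPKM per gene for each condition. The submitters' processing notes name STAR 2.5.4a, Cufflinks 2.2.1 and Cuffdiff, and the builds mm9 and GRCm38, for the series without saying which step used which; no source used here gives the scaling between libraries or the strand setting of the counting. Overlapping genes and near-identical copies can therefore share or split reads.

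FPKM values were transformed to log2(FPKM + 1), genes whose mean reached 1 FPKM were kept, and groups were compared with limma 3.58.1 in R 4.3.3 (empirical Bayes with a trend, Benjamini-Hochberg adjustment over all genes kept, threshold 0.05). The pseudocount understates changes of low genes. The fit across both conditions used 12 libraries with an interaction term. The script was tested on simulated data. Promoter sequences came from RefSeq (GRCm38.p6) by gene symbol. Named genes are Dot1l, the 20 largest changes in each direction with assigned symbols, up to 6 members per list past the threshold and, for lists with few such members, the most abundant ones; others were chosen after their values were seen. The members and gene lists were chosen with earlier results of these data known. A few genes picked by this rule are not reported here. Alternatives changed the pseudocount, filter, scaling, limma settings, replicate block and libraries.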

Additional observations from a re-analysis of the deposited data

Results flagged for a closer look

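For 16 genes among the 20 largest changes in each direction and Dot1l, the change in LIF differed from the change under Wnt3a and activin A by the interaction test in limma (adjusted p under 0.05), with values given as the log2 change in LIF minus that under differentiation. The difference was positive for Adamtsl4 (2.03), Pdlim3 (2.02), Slc4a5 (1.72), Bcas1 (1.02), Mael (0.86) and Thbs1 (0.40). It was negative for Ntn1 (-2.77), C2cd2l (-2.01), Mras (-1.92), Slc25a12 (-1.79), Sall3 (-1.75), Polr3gl (-1.47), Lix1l (-1.32), Slc4a2 (-1.12), Cntfr (-0.86) and Dot1l (-0.63).

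Under the 10 alternatives run on this test, the difference passed in 5 for Adamtsl4, 7 for Thbs1 and 4 for Mael, and in all 10 for the other 13 genes. The conditions also differ in medium and in the feeder layer, whose part in these differences was not tested.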

How the results depend on the processing

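The count of 580 genes was 259 (73 higher, 186 lower) with no filter, 269 (142 lower) after quantile normalization, 360 (196 lower) when rescaled by median of ratios, 269 (141 lower) with equal sums set without the most abundant gene, and 236 (147 lower) without limma's trend. With 1 library left out it ranged from 1 to 27, with 0 to 9 higher and 0 to 18 lower. Dot1l then lay between -1.09 and -0.94, with limma adjusted p-values from 0.0609 to 0.0867, past the threshold in none. Lists with a median above 0 numbered 16, but 25 after quantile normalization and 27 when rescaled by median of ratios. Why the counts moved was not tested. Of 134 genes picked by the naming rule, 134 stayed past the threshold with a pseudocount of 0.1, 78 after quantile normalization, 98 when rescaled by median of ratios and 53 with no filter. The 4513 genes that differed between conditions stayed between 3784 and 4558.

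With the replicate number as a block, 0 genes passed in limma, 2733 had an unadjusted p under 0.05, and Dot1l was -1.04 (adjusted p = 0.139). Same-numbered libraries had correlations of deviations of 0.0426, 0.0188 and -0.00271, and control replicates 2 and 3 did not correlate best with their own number. With 3 libraries per group these values cannot show whether same-numbered libraries were paired.

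Depth is unknown from FPKM, so no counting intervals are given, and values under 1 FPKM rest on an unknown number of fragments.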

Other observations

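The genes of this section were chosen after their values were seen. Of 16 tested Platr genes, long noncoding RNAs described in pluripotent cells, 3 rose and none fell, against 0.958% and 3.45% of all genes. Their median was 0.10, against -0.07 over all genes tested. Platr14 had 70.2, 69.3 and 63.1 FPKM in controls and 91.5, 103 and 95.0 FPKM in the KO. Platr3 had 17.5, 17.9 and 18.1 and 27.1, 33.8 and 25.4 FPKM, and Platr5 6.05, 5.60 and 8.12 and 14.9, 14.8 and 11.2 FPKM. Tex19.1, which restrains transposons in germ cells and placenta, had 76.9, 73.2 and 77.8 FPKM in controls and 108, 103 and 104 FPKM in the KO, and Rec114, for meiotic recombination, 7.58, 6.92 and 6.97 and 11.4, 10.8 and 9.90 FPKM. Limma adjusted p-values of these 5 genes lay between 0.0177 and 0.0383.

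Metabolic genes were among the falls. Tdh, the threonine dehydrogenase on which mouse ES cells depend, had 331, 328 and 372 FPKM in controls and 239, 242 and 236 FPKM in the KO. Idh2, of the mitochondrial citrate pathway, had 135, 145 and 160.3 and 91.8, 89.6 and 81.8 FPKM, and Cpt1a, which admits fatty acids to mitochondria, 31.1, 30.2 and 33.1 and 20.1, 22.1 and 20.5 FPKM. The redox enzyme genes Cat (-0.59) and Nqo1 (-0.67) also fell, while the metallothionein genes Mt1 and Mt2 each rose by 0.31. Of the Wnt pathway, the receptor gene Fzd5 (-0.73), the antagonist gene Sfrp1 (-0.62) and Porcn (-0.40), needed to secrete Wnt proteins, fell together. Neural and other developmental regulators that fell were Sox21 (-0.77), Olig1 (-0.48) and Sall1 (-0.47).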
